A study of Mus musculus with 36 samples.

Results

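The genes described here encode the urea cycle and the glutamine enzymes of mouse liver. They were taken as the probe sets whose platform annotation gives a symbol from a list of 9 genes, with the brightest probe set standing for a gene. Of these 9 genes, 7 had a probe set of their own and passed the filter on dim values, namely Nags, Cps1, Otc, Slc25a15, Asl, Arg1 and Glul, among 13956 genes tested in the series. Both probe sets of Ass1 are also annotated to Gm5424, a transcribed pseudogene, so their signal cannot be assigned to Ass1 alone and is described as the Ass1/Gm5424 signal. Gls2, the liver glutaminase, was not named by the annotation used here and is not analysed.

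The animals were C57BL/6J mice, 16 weeks old at harvest, of a common inbred line. They were fed without restriction and kept with 12 h of light a day. One set ate normal chow and the other a high fat diet, with 60% of its calories from fat, over 10 weeks. Livers were taken at 6 times, 4 h apart, from ZT0 to ZT20, with Zeitgeber time (ZT) given in hours since the lights came on. Each of the 12 groups of diet and time held 3 samples on 1 whole-transcript array each, 36 in all. The labels state neither the sex nor whether each sample was a separate mouse, so the p-values speak only for the spread among these samples, which may be technical.

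The urea cycle turns ammonia, which is released when amino acids are broken down, into urea. It starts in the mitochondria of hepatocytes, where NAGS makes the activator of CPS1, CPS1 joins ammonia and bicarbonate to carbamoyl phosphate, and OTC joins that to ornithine, which SLC25A15 carries in. In the cytosol ASS1 adds aspartate, ASL splits off fumarate and leaves arginine, and ARG1 releases urea and returns ornithine. The cycle is most active in hepatocytes around the portal vein, beside glutaminase, which feeds it with ammonia. Glutamine synthetase, the product of Glul, sits in a thin layer of hepatocytes around the central vein and captures ammonia that escaped the cycle.

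Values are log2(intensity + 16) of the probe set, a scale on which 1 unit is about a doubling. Levels of different probe sets cannot be set against each other, since each probe set responds differently. Of the hepatocyte markers 10 of 10 were tested, with a log2 summed intensity of 16.33 to 16.56 on chow and 16.37 to 16.55 on high fat diet. All listed macrophage, sinusoidal endothelial and stellate genes were tested too, so this count does not by itself check the tissue label. Of 11 clock genes tested, 11 were rhythmic on each diet, with Dbp peaking 9.55 h after lights on with chow and 8.13 h with high fat diet, and Arntl at 22.1 and 20.4 h. Log2 values correlated at 0.980 or more between arrays of a group, and array quality weights from limma ran from 0.265 to 3.61. The 4 arrays of lowest weight were a chow array each at ZT4, ZT16 and ZT20 and a high fat diet array at ZT20. Without them the same numbers of members were called in each comparison given below, an alternative chosen after the data were seen.

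RefSeq start sites of the GRCm38.p6 build gave promoter windows for 5 of the 9 genes, Nags, Otc, Slc25a15, Ass1 and Glul. A pair of them is shown because Nags was rhythmic on both diets and Glul differed between the diets. Each is the 250 bases before the start site on the strand of the gene, and capitals mark the motifs that were found. Searched on both strands were the E-box CACGTG bound by clock factors, the D-box TTATGTAA bound by PAR bZIP factors, the nuclear receptor motif AGGTCA, the cAMP response element TGACGTCA and the CCAAT box.
Nags, chr11:102145263-102145512, plus strand: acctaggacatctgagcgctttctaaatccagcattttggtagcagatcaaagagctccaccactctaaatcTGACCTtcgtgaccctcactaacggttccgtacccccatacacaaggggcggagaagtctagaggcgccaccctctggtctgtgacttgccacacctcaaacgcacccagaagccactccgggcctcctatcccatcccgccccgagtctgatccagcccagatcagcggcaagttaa
Glul, chr1:153899679-153899928, plus strand: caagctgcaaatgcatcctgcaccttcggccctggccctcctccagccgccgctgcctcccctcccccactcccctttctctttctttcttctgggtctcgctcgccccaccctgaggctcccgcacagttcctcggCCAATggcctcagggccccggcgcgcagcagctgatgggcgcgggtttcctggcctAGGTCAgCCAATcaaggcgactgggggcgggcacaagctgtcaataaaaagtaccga

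The Nags window held 1 AGGTCA match, on the opposite strand, from -178 to -173, counted back from the base before the start site as -1. The Glul window held AGGTCA from -57 to -52 and CCAAT boxes from -113 to -109 and from -50 to -46. Over all 32851 windows of this length in the table, 14.0% held AGGTCA, 33.8% the CCAAT box and 6.02% the E-box. An E-box was present in the Ass1 window and in 1 of 2 windows of Slc25a15, and the Otc window held none of the 5 motifs. These matches describe letters only, and binding was not measured.

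The average over the day asked which members differ between the diets whatever the hour. Asl and Cps1 were lower and Glul was higher on high fat diet, which makes 2 of 7 tested members lower and 1 higher. Over all tested genes 21.0% were called in this comparison, 11.2% higher and 9.80% lower, and the members' share rests on only 7 genes. The median difference of the 7 members was -0.09, beside 0.02 for all tested genes. After centring each array on its median the split of all called genes moved from 1570 higher and 1367 lower to 827 and 1926, and 4 members were then called lower. The calls are from limma at a Benjamini-Hochberg adjusted p under 0.05 over all tested genes.

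**Figure D1:**
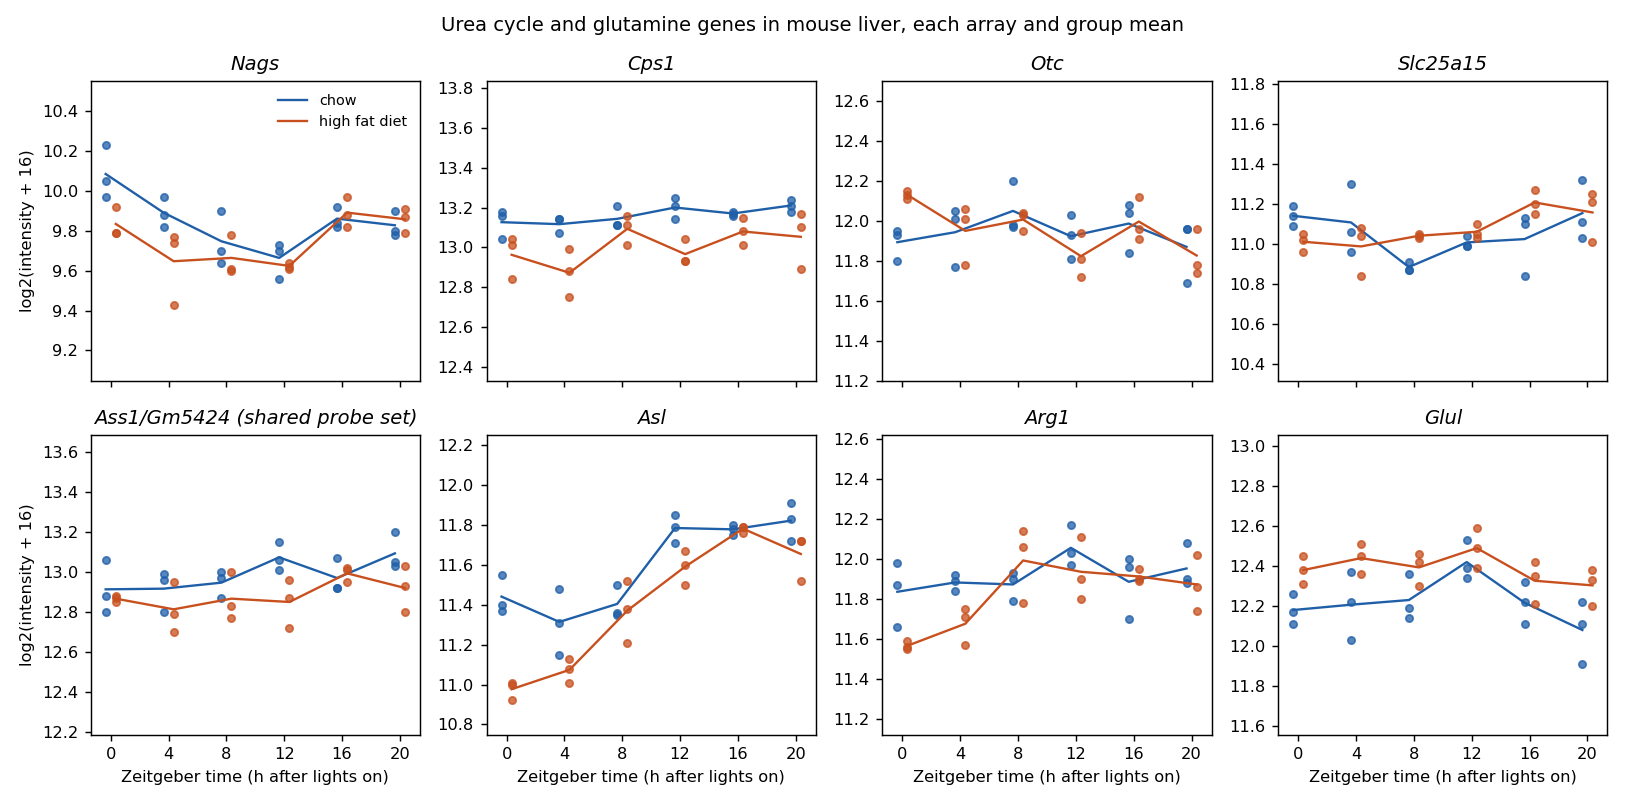
Log2(intensity + 16) of the 7 tested members and of the brighter Ass1/Gm5424 probe set, against Zeitgeber time in hours, with a point per array (3 per group) and lines through the group means of chow (blue) and high fat diet (orange). Each panel spans the same 1.5 log2 units. Asl drops lowest at ZT0 on high fat diet (mean 10.98), Cps1 lies lower on high fat diet at each time, and Glul lies higher at each time.

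The mitochondrial steps come first. Cps1, which catalyses the entry step and is among the most abundant liver messages, read from 13.04 to 13.25 with a median of 13.16 over 18 chow samples, and from 12.75 to 13.17 with a median of 13.01 over 18 high fat diet samples. The samples of both diets overlap, but most high fat diet samples lie under the chow median. The average difference was -0.16 ± 0.03 (SE, limma adjusted p = 0.000341), a ratio of 0.898. The difference was negative at 6 of 6 times, as it was for 6.64% of tested genes.

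By the hour, Cps1 was most apart at ZT4, where the chow samples read 13.07, 13.14 and 13.14 and the high fat diet samples 12.75, 12.88 and 12.99. At ZT12 chow gave 13.14, 13.21 and 13.25 and high fat diet 12.93, 12.93 and 13.04. At neither time did the diets overlap, and the differences of -0.25 ± 0.08 and -0.23 ± 0.08 missed the threshold in limma, with adjusted p = 0.0612 and 0.0651, and were called in 8 and 5 of 47 alternatives. At ZT8 the samples did overlap, with 13.11, 13.11 and 13.21 on chow and 13.01, 13.11 and 13.16 on high fat diet. Over the day every high fat diet sample lay under every chow sample at 4 times, ZT4, ZT12, ZT16 and ZT20, which 2.40% of tested genes did at 4 or more times.

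Nags, which makes N-acetylglutamate, the activator CPS1 cannot work without, averaged 9.84 ± 0.16 on chow and 9.75 ± 0.14 on high fat diet (SD, n = 18 each). Its difference of -0.09 ± 0.04 missed the threshold in limma (adjusted p = 0.0626), and 11 of 47 alternatives put it past, with adjusted p from 0.0246 to 0.135. At ZT0 chow read 9.97, 10.05 and 10.23 and high fat diet 9.79, 9.79 and 9.92, and at ZT4 chow read 9.82, 9.88 and 9.97 and high fat diet 9.43, 9.74 and 9.77. The diets did not overlap at these times, with differences of -0.25 ± 0.09 at ZT0 and -0.24 ± 0.09 at ZT4 (limma adjusted p = 0.0756 and 0.119). Groups without overlap occurred for 26.5% of tested genes at ZT0 and 21.6% at ZT4. Leaving out 1 array moved the ZT0 value between -0.31 and -0.18, and 3 of 47 alternatives called it, among them the removal of chow replicate 1 (limma adjusted p = 0.0466). Without high fat diet replicate 1, at 9.43, the ZT4 value was -0.14 (limma adjusted p = 0.576). The test that the difference varies over the day gave limma adjusted p = 0.434. At ZT16 and ZT20 the group means lay 0.03 apart, with high fat diet above.

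Otc, the enzyme that makes citrulline, showed an average difference of 0.01 ± 0.04 (limma adjusted p = 0.891). Its sign turned after median centring (-0.03). At ZT0 its samples read 11.80, 11.93 and 11.95 on chow and 12.11, 12.13 and 12.15 on high fat diet. That is the only time at which its diets did not overlap, and the high fat diet samples lay above chow, where those of Nags and Slc25a15 lay below. The difference of 0.24 ± 0.098 missed the threshold in limma (adjusted p = 0.137). Groups without overlap occurred for 26.5% of tested genes at ZT0. Median centring shifted the median difference of all genes at that time by -0.13.

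Slc25a15, the ornithine carrier of the inner mitochondrial membrane, averaged 11.05 ± 0.14 on chow and 11.08 ± 0.11 on high fat diet (SD, n = 18 each), a difference of 0.02 ± 0.04 (limma adjusted p = 0.691) that turned to -0.02 after median centring. Its difference went both ways over the day. At ZT0 chow read 11.09, 11.14 and 11.19 and high fat diet 10.96, 11.02 and 11.05, all lower, while at ZT8 chow read 10.87, 10.87 and 10.91 and high fat diet 11.03, 11.04 and 11.05, all higher. At ZT16 high fat diet was again above, with 11.15, 11.20 and 11.27 beside 10.84, 11.10 and 11.13. Without chow replicate 1, at 10.84 and among the arrays of lowest weight, the ZT16 difference fell from 0.185 to 0.0948. None of these differences passed by limma (adjusted p = 0.373, 0.639 and 0.359), and groups without overlap occurred for 26.5% of tested genes at ZT0, 14.5% at ZT8 and 18.0% at ZT16.

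At the other single times 0 of 7 members passed in limma, and the shares of all tested genes that did were small as well. At ZT4 these were 3.69%, with 1.40% lower and 2.29% higher, and at ZT8 0.774%, with 0.494% lower and 0.279% higher. At ZT12 they were 5.44%, with 2.97% lower and 2.47% higher. At ZT16 2.22% passed, 1.18% lower and 1.05% higher, and at ZT20 2.04%, 0.803% lower and 1.24% higher. Before adjustment 6 members lay under 0.05 at ZT0, beside 23.6% of all tested genes, 5 at ZT4 beside 17.0% and 0 at ZT8 beside 9.41%. The same counts were 2 at ZT12 beside 18.2%, 1 at ZT16 beside 13.2% and 2 at ZT20 beside 13.5%. All these shares rest on 3 samples against 3. At every time the most influential removal of 1 array lowered the count of called genes by over 1.5 times, while some other removals raised it. Groups without overlap occurred for 21.6% of tested genes at ZT4, 24.6% at ZT12 and 15.5% at ZT20.

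Among the cytosolic steps Asl, the argininosuccinate lyase, carried the largest difference of the 7 members. Its average difference was -0.18 ± 0.03 (limma adjusted p = 0.000213), a ratio of 0.882, from 11.59 ± 0.23 on chow to 11.41 ± 0.32 on high fat diet (SD, n = 18 each). At ZT0 the chow samples read 11.37, 11.40 and 11.55 and the high fat diet samples 10.92, 11.00 and 11.01. Here the diets were far apart, and in linear units the mean intensity was 2764 on chow and 1998 on high fat diet. The difference at ZT0, -0.46 ± 0.08 (limma adjusted p = 0.00128), was the only member difference at a single time that passed in the fit of genes. At ZT0 7.12% of tested genes passed, 3.75% lower and 3.37% higher. That count, 993 genes, went from 270 without chow replicate 3 to 1806 after median centring, while the call of Asl held in all 47 alternatives. Median centring shifted the median of all genes at ZT0 by -0.13, to -0.10, and Asl stood at -0.60 there.

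At ZT4 the Asl samples of the diets did not overlap either, where chow read 11.15, 11.31 and 11.48 and high fat diet 11.01, 11.08 and 11.13. At ZT8 the samples overlapped, 11.35, 11.36 and 11.50 on chow and 11.21, 11.38 and 11.52 on high fat diet. At ZT12 chow read 11.71, 11.79 and 11.85 and high fat diet 11.50, 11.60 and 11.67. By ZT16 the diets had met, with 11.75, 11.78 and 11.80 on chow and 11.76, 11.79 and 11.79 on high fat diet. At ZT20 chow read 11.72, 11.83 and 11.91 and high fat diet 11.52, 11.72 and 11.72, with every high fat diet sample at or below the lowest chow sample to 2 decimals. The differences at ZT4 (-0.24 ± 0.08), ZT12 (-0.19 ± 0.08) and ZT20 (-0.17 ± 0.08) missed the threshold in limma, with adjusted p = 0.116, 0.213 and 0.395. No overlap was seen for 21.6% of tested genes at ZT4, 24.6% at ZT12 and 15.5% at ZT20. Without chow replicate 3 the ZT4 value was -0.32 (limma adjusted p = 0.03998), and without chow replicate 2 it was -0.15 (adjusted p = 0.5105).

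Arg1, the liver arginase that closes the cycle, averaged 11.92 ± 0.12 on chow and 11.83 ± 0.19 on high fat diet (SD, n = 18 each). The difference of -0.09 ± 0.04 missed the threshold (limma adjusted p = 0.124) and passed only after median centring (-0.13, adjusted p = 0.0284). At ZT0 chow read 11.66, 11.87 and 11.98 and high fat diet 11.55, 11.56 and 11.59, and at ZT4 chow read 11.84, 11.89 and 11.92 and high fat diet 11.57, 11.71 and 11.75. The diets did not overlap at these hours, while they did at ZT8, where chow gave 11.79, 11.90 and 11.93 and high fat diet 11.78, 12.06 and 12.14. The differences were -0.27 ± 0.10 at ZT0, -0.21 ± 0.10 at ZT4 and 0.12 ± 0.10 at ZT8 (limma adjusted p = 0.0989, 0.268 and 0.768). Such gaps between the diets occurred for 26.5% of tested genes at ZT0 and 21.6% at ZT4.

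The Ass1/Gm5424 signal was followed in a fit with every probe set as a feature of its own, added after the data were seen. ASS1 makes argininosuccinate and is often described as limiting for the cycle. The brighter probe set averaged 12.99 ± 0.11 on chow and 12.89 ± 0.10 on high fat diet (SD, n = 18 each), a difference of -0.10 ± 0.04 that lay at the threshold (limma adjusted p = 0.0499). The dimmer probe set gave -0.10 ± 0.03 (limma adjusted p = 0.0417). What share of all probe sets this fit called was not counted. Of 47 alternatives 27 lost the call of the brighter probe set, with adjusted p from 0.0006031 to 0.0909, and 22 that of the dimmer, with adjusted p from 0.0009246 to 0.0777. The diets did not overlap at ZT12 alone, with differences of -0.22 ± 0.09 and -0.22 ± 0.08 (adjusted p = 0.186 and 0.193). At that time 24.6% of tested genes had no overlap.

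**Figure D2:**
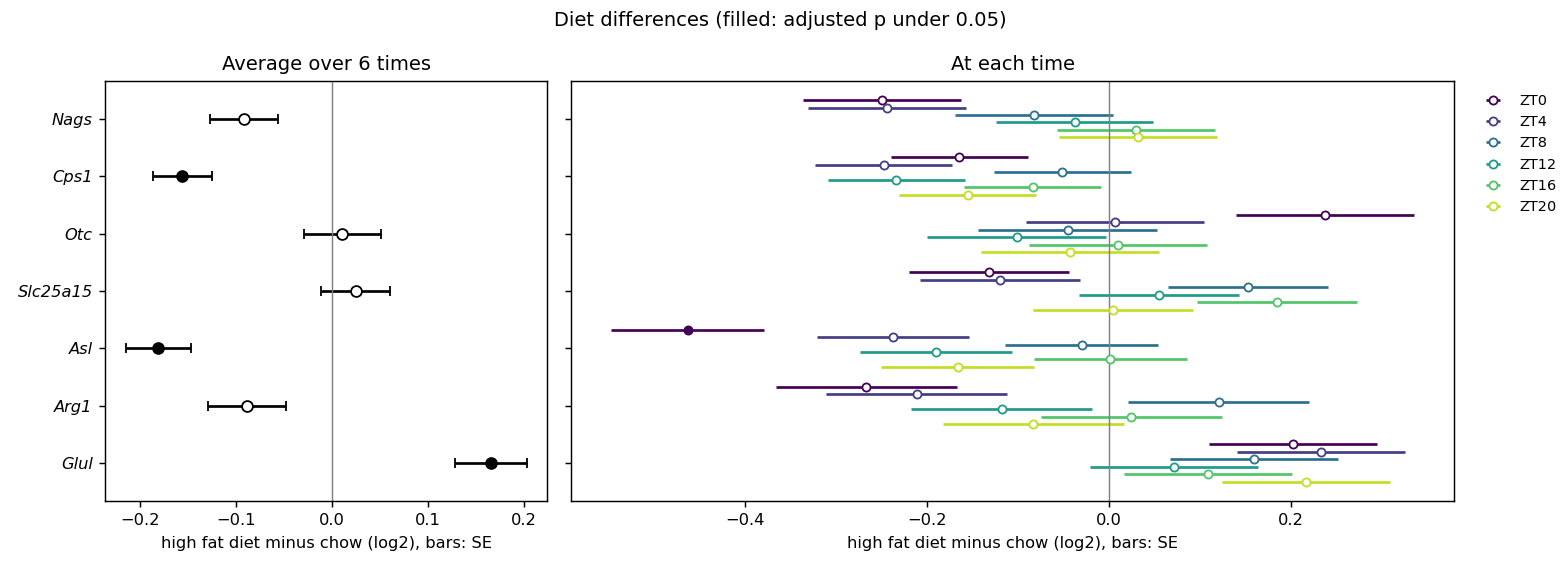
Difference of high fat diet minus chow in log2 units for the 7 tested members, averaged over the 6 times (left) and at each time (right, coloured by Zeitgeber time), with standard errors of the limma fit as bars. Filled points have an adjusted p under 0.05. On the left these are Cps1 (-0.16), Asl (-0.18) and Glul (0.17), and on the right only Asl at ZT0 (-0.46).

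Glul, which makes glutamine from glutamate and ammonia, differed in the opposite direction from Cps1 and Asl. It read from 11.91 to 12.53 with a median of 12.22 over 18 chow samples and from 12.20 to 12.59 with a median of 12.39 over 18 high fat diet samples, ranges that overlap. The average difference was 0.17 ± 0.04 (limma adjusted p = 0.00163), a ratio of 1.12, and it was positive at 6 of 6 times, as for 7.62% of tested genes. At ZT0 chow read 12.11, 12.17 and 12.26 and high fat diet 12.31, 12.38 and 12.45, the only time without overlap. At that time 26.5% of tested genes had no overlap, and median centring shifted the median difference of all genes by -0.13. At ZT4 chow spread over 12.03, 12.22 and 12.37 beside 12.36, 12.45 and 12.51 on high fat diet, and at ZT20 chow gave 11.91, 12.11 and 12.22 beside 12.20, 12.33 and 12.38. No single time passed for this probe set, with limma adjusted p from 0.168 at ZT4 to 0.792 at ZT12.

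The other Glul probe set gave a second reading of the same gene. Its average difference was 0.21 ± 0.05 in the fit of all probe sets (limma adjusted p = 0.0045), and at ZT0 it was 0.41 ± 0.12 (adjusted p = 0.0443). The share of all probe sets called in that fit was not counted, so these calls stand without a background. The call at ZT0 was lost in 13 of 47 alternatives, with adjusted p up to 0.187, among them the removal of either high fat diet replicate 1 or 2, or chow replicate 1 or 3, of that time. The call on the average was kept in all 47 for both Glul probe sets.

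Because Glul marks hepatocytes around the central vein, lists of zonal genes are given beside it. Of 16 pericentral genes tested, 7 rose and 2 fell on high fat diet, with a median difference of 0.14. Lect2 rose by 0.50 ± 0.05 and the stem cell receptor gene Lgr5 by 0.26 ± 0.05, while the bile acid enzyme gene Cyp7a1 stood at -0.39 ± 0.06 and Cyp1a2, a cytochrome P450, at -0.39 ± 0.07. Of 15 periportal genes tested, 3 rose and 5 fell, with a median of -0.04. Over all tested genes 11.2% rose and 9.80% fell. The lipid transporter Mfsd2a rose by 1.98 ± 0.18, and Cdh1 (-0.76 ± 0.07), Igfbp2 (-0.96 ± 0.10) and Etnppl (-0.61 ± 0.07) fell. The summed pericentral level ran from 15.14 to 15.43 on chow and from 15.08 to 15.51 on high fat diet, and the summed periportal level from 14.99 to 15.42 and from 14.92 to 15.26. In bulk liver a change in the number of cells of a kind and a change in RNA per cell cannot be told apart.

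Markers of other cells were read in the same way, beside 11.2% of all tested genes that rose and 9.80% that fell. Several of these lists hold few tested genes. Of 12 Kupffer cell and macrophage genes tested, 9 rose and 0 fell, with a median difference of 0.34 and a summed level of 11.48 to 12.85 on chow and 12.03 to 13.24 on high fat diet. Their defining genes Clec4f (0.31 ± 0.07) and Adgre1 (0.37 ± 0.11) were among those that rose. Of 10 hepatocyte genes 0 rose and 2 fell, Tat (-0.18 ± 0.04) and Hnf4a (-0.13 ± 0.04), and of 10 sinusoidal endothelial genes none passed in limma, nor did any have an unadjusted p under 0.05, the smallest adjusted p being 0.214 for Lyve1 at 0.26 ± 0.15. In stellate cells 3 of 10 tested genes rose, in the lymphocyte list 3 of 6, and 1 each of 3 bile duct, 3 pancreas and 3 kidney genes. For adipose tissue 2 of 4 rose, Cidec (1.16 ± 0.20) and Fabp4 (0.31 ± 0.10). The other adipose genes, Plin1 (0.02 ± 0.05) and Retn (0.04 ± 0.06), did not pass in limma. No red blood cell gene (1 tested) or muscle gene (4 tested) passed in limma. Whether these cells had a part in the differences of Asl, Cps1 and Glul was not tested.

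The next comparison asked which members follow a 24 h wave, and when they peak. Asl and Nags were called rhythmic on both diets, Slc25a15 on chow and Arg1 on high fat diet, so that 3 of 7 members were called on each diet. Over all tested genes 20.6% were called on chow and 11.0% on high fat diet, by limma's moderated F test of a cosine and a sine term. Amplitudes, taken on the log2 scale as the height of the peak over the mean, were small beside those of clock genes such as Dbp (2.24 on chow). An F test of any difference between the 6 times, which assumes no wave, called 2 of 7 members on each diet, beside 21.0% of tested genes on chow and 16.8% on high fat diet. The median amplitude of the 7 members was 0.11 on chow and 0.10 on high fat diet, beside 0.09 and 0.08 over all tested genes.

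Asl had the largest wave of the members. On chow its amplitude was 0.28, with a peak at 16.3 h after lights on (limma adjusted p = 1.89e-05), and on high fat diet the amplitude was 0.40 with a peak at 15.1 h (adjusted p = 5.74e-08). In the group means of the same arrays, chow rose from 11.31 at ZT4 to 11.82 at ZT20 and high fat diet from 10.98 at ZT0 to 11.78 at ZT16. Chow means were nearly level from ZT12 on, with 11.78 at both ZT12 and ZT16. The means of Asl were thus highest from ZT12, when the lights went off, to ZT20 on both diets. On chow its means stayed between 11.31 and 11.44 from ZT0 to ZT8, while on high fat diet they were lowest at ZT0 (10.98) and ZT4 (11.07) and reached 11.37 by ZT8. The call held under all 48 alternatives on each diet.

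Nags had a later fitted peak than Asl on each diet, in the dark phase. On chow its amplitude was 0.16 with a peak at 23.6 h (limma adjusted p = 0.0072), and on high fat diet 0.14 with a peak at 19.7 h (adjusted p = 0.0322). Its chow mean ran from 9.66 at ZT12 to 10.08 at ZT0, while the high fat diet mean ran from 9.62 at ZT12 to 9.89 at ZT16. The call on high fat diet was lost in 8 of 48 alternatives, with adjusted p up to 0.0927. Among those were the removal of high fat diet replicate 1 at ZT4, replicate 1 or 3 at ZT8, replicate 2 at ZT16 or replicate 1 at ZT20.

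Arg1 had an amplitude of 0.06 on chow (peak 13.5 h, limma adjusted p = 0.547) and of 0.19 on high fat diet (peak 12.7 h, adjusted p = 0.0108). The high fat diet mean went from 11.57 at ZT0 to 11.99 at ZT8, whereas chow means stayed between 11.84 and 12.06. Slc25a15 was at the threshold on chow, with amplitude 0.12, peak 22.2 h and limma adjusted p = 0.0467, a call that 25 of 48 alternatives lost (adjusted p up to 0.151). On high fat diet it had amplitude 0.10 with a peak at 16.7 h (adjusted p = 0.127).

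Cps1, Otc and Glul were called rhythmic on neither diet. Cps1 showed the flattest wave, with amplitude 0.04 on chow (limma adjusted p = 0.669) and 0.07 on high fat diet (adjusted p = 0.415). Otc reached 0.06 and 0.08 (adjusted p = 0.579 and 0.539), and Glul 0.11 on chow (peak 10.6 h, adjusted p = 0.0897) and 0.07 on high fat diet (adjusted p = 0.536). The brighter Ass1/Gm5424 probe set gave 0.07 on each diet (adjusted p = 0.390 and 0.541).

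**Figure D3:**
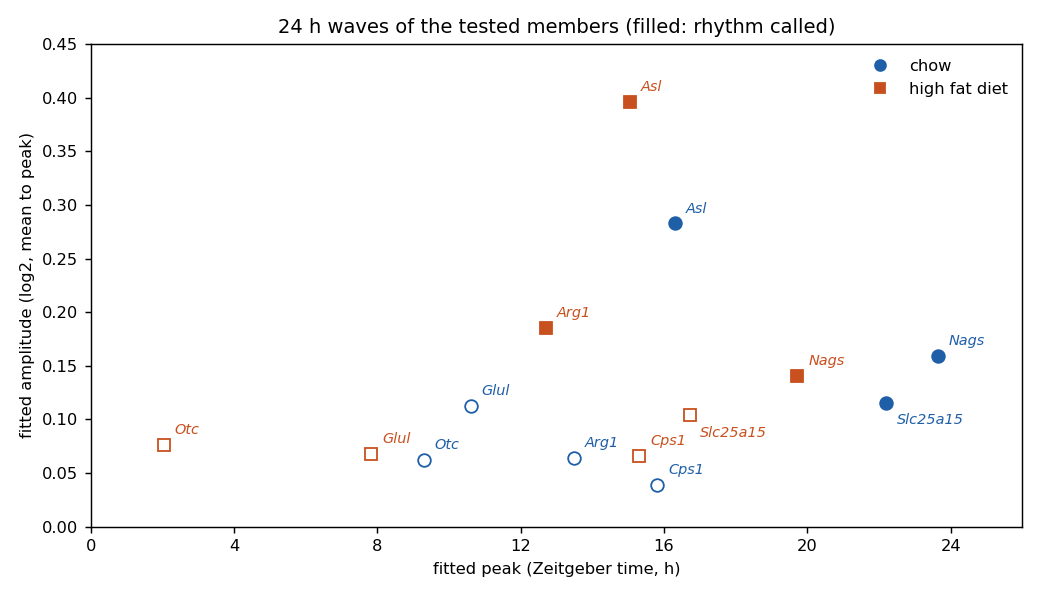
Fitted amplitude (log2 units from mean to peak) against fitted peak time (hours after lights on) of the 24 h wave for the 7 tested members on chow (blue circles) and high fat diet (orange squares). Filled symbols were called rhythmic. Asl stands highest on both diets, at 0.28 and 0.40, and Nags lies at 23.6 h on chow and 19.7 h on high fat diet.

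None of the 7 members passed the test that the waves differ between the diets, in which 0.0287% of tested genes (4 in all) were called. Before adjustment 3 members lay under 0.05 in limma, beside 8.32% of tested genes, namely Slc25a15, Nags and Asl, with adjusted p = 0.532, 0.546 and 0.577. The rhythm of Arg1 was therefore not shown to differ between the diets (adjusted p = 0.724), although it passed on one of them. The F test of a diet difference that varies over the 6 times, with 0.631% of tested genes called, also called 0 members. Asl had the smallest value there, with limma adjusted p = 0.195, and was the 1 member under 0.05 before adjustment, beside 13.4% of tested genes. With array quality weights, Asl (adjusted p = 0.00815) and Arg1 (adjusted p = 0.0168) were called in that test. Those weights called 1862 of 13956 tested genes there, in place of 88.

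Profiles were also compared over the 12 group means, as a description. Asl and Arg1 ran alike (Pearson r = 0.786), as did Cps1 and Arg1 (r = 0.689), Cps1 and Asl (r = 0.675) and Nags and Slc25a15 (r = 0.561). Glul ran against Nags (r = -0.696) and Cps1 (r = -0.676), and Otc against Asl (r = -0.519). These are the pairs of members with the largest r in size, and Otc with Slc25a15 came next (r = -0.498). These points share arrays, and 12 means give little precision. Among all tested genes the profiles most like Asl were those of the carboxylesterase gene Ces1d (r = 0.970), Nnmt (0.944) and Slc35g1 (0.936). For Arg1 they were Ptges2 (0.946), Fbxo31 (0.933) and the proline oxidase gene Prodh (0.919), and for Cps1 Ces3b (0.967), Lama3 (0.966) and Mrpl28 (0.958). Nags ran with Wapl (0.956), Uhrf2 (0.931) and Pard6b (0.928), and Glul with Impg2 (0.936), Fn1 (0.917) and Cpt1a, the mitochondrial fatty acid importer (0.916). For Otc these were Cyp2a12 (0.928), Pias1 (0.903) and Sult2a8 (0.901), and for Slc25a15 N4bp2l2 (0.941), Slc45a3 (0.844) and Fam160b2 (0.822).

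Neighbouring steps of nitrogen handling were read from lists of genes. Of 14 tested carriers and enzymes that supply the cycle, 4 rose and 1 fell on the daily average, with a median of 0.05. Glud1, which releases ammonia from glutamate in mitochondria, rose by 0.17 ± 0.04, the glutamate carrier gene Slc25a22 by 0.23 ± 0.06 and Car5a, which makes bicarbonate for CPS1, by 0.13 ± 0.04. Slc7a2, an arginine and ornithine transporter of the cell membrane, had a difference of -0.18 ± 0.05. Limma adjusted p-values for these ran from 0.0006 for Glud1 to 0.0132 for Slc7a2. The shares for all tested genes were 11.2% higher and 9.80% lower, and no test was made of this list or of those that follow.

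Of 12 tested glutamine and glutamate carriers 2 rose and 3 fell. Slc1a4, a neutral amino acid exchanger, rose by 0.38 ± 0.06. The exchangers Slc7a5 (-0.28 ± 0.05) and Slc1a5 (-0.30 ± 0.06) were lower, as was Slc3a2 (-0.10 ± 0.03), the heavy chain that pairs with SLC7A5. Slc1a4, Slc7a5 and Slc1a5 were dim, with mean values of 6.89, 7.25 and 6.75 beside a filter cut of 6.11. Slc38a3, a glutamine carrier of hepatocytes, was rhythmic on both diets, with amplitudes of 0.23 and 0.29 and peaks at 9.45 and 8.36 h. Slc38a2 was rhythmic as well, with amplitudes of 0.43 and 0.29.

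Of 26 tested enzymes of amino acid breakdown 8 fell and 5 rose, with a median of -0.05, beside 9.80% and 11.2% of all tested genes. Gcat of threonine breakdown fell by 0.65 ± 0.05, the decarboxylase Ddc by 0.68 ± 0.07 and Cth of cysteine synthesis by 0.38 ± 0.04, while Prodh2 rose by 0.25 ± 0.04. Of these 26, 8 were rhythmic on each diet, beside 20.6% of all tested genes on chow and 11.0% on high fat diet. Amt and Gldc, both of the glycine cleavage system, had amplitudes on chow of 0.40 and 0.34. In the ornithine, polyamine and creatine list 2 of 13 fell and 1 rose, with the spermidine synthase gene Srm at -0.28 ± 0.05, Odc1, which decarboxylates ornithine, at -0.17 ± 0.06 and the creatine enzyme gene Gamt at 0.16 ± 0.04.

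Among 18 tested regulators known to act on urea cycle genes or on the fasting response, 3 rose and 2 fell. Ppara rose by 0.46 ± 0.05 and Creb3l3 by 0.17 ± 0.05, and Atf4 (-0.20 ± 0.05) and Hnf4a (-0.13 ± 0.04) fell. Rhythms were called for 7 of these 18 on chow and 6 on high fat diet, beside 20.6% and 11.0% of all tested genes. Klf15, a regulator of amino acid metabolism, peaked at 11.5 h on chow and 10.3 h on high fat diet, with amplitudes of 0.24 and 0.27, and Cebpb at 13.3 and 11.9 h.

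**Figure D4:**
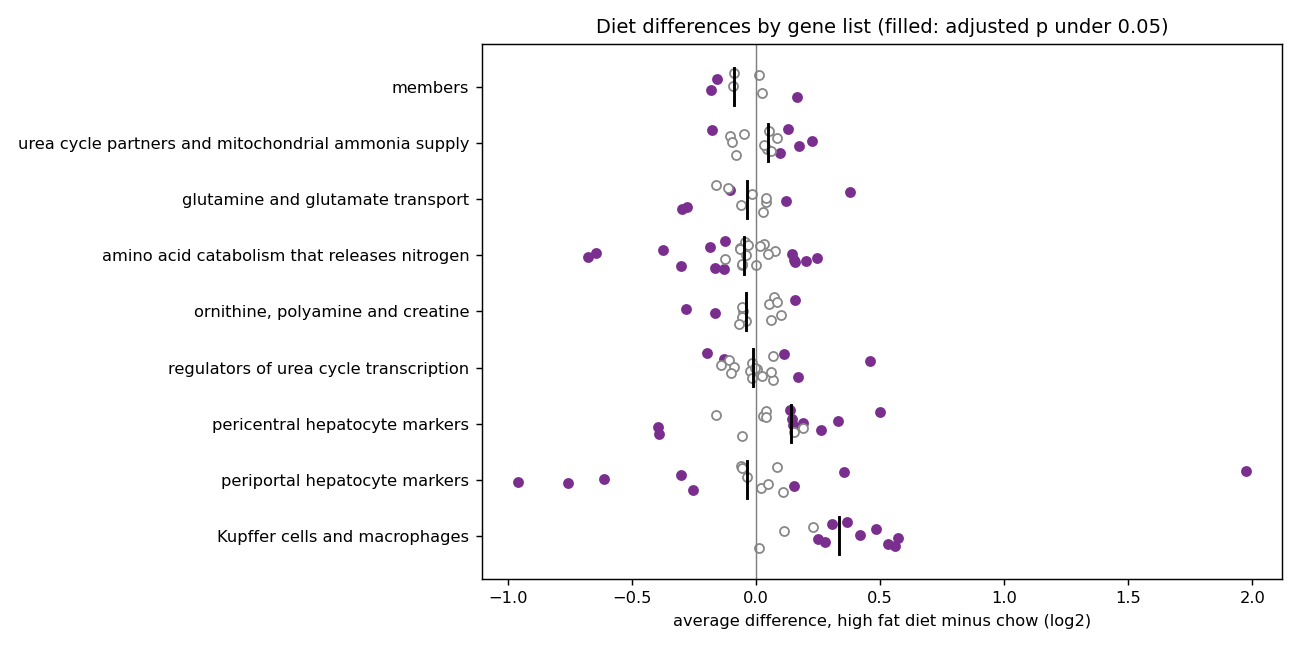
Average difference of high fat diet minus chow (log2) for each tested gene of 9 lists, with filled purple points for an adjusted p under 0.05, open points for the rest and a black line at the median. The members have a median of -0.09, pericentral genes of 0.14 and macrophage genes of 0.34, and the point at 1.98 among periportal genes is Mfsd2a.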

How the data were processed

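The authors deposited 1 linear intensity per probe set and array, for 35556 probe sets, and the submitters' processing notes name Affymetrix Expression Console 1.1.1 and PLIER 2.0. Background correction, scaling between arrays and scan batches are not given in these sources, and array medians lay between 75.7 and 95.6. The platform annotation gave 1 gene for 21789 probe sets, several for 1621 and none for 12146. Intensities were used without further scaling as log2(intensity + 16), where the offset shrinks the differences of dim probe sets. The brightest probe set stood for a gene, and genes above the 30th percentile of mean value (6.11) were kept. Limma 3.58.1 in R 4.3.3 fitted a mean per diet and time with 24 residual degrees of freedom, and a second fit held a mean and a 24 h wave per diet. P-values were adjusted by Benjamini-Hochberg over all 13956 tested genes in each comparison. The number of arrays limits the precision. Fits were tested on simulated data.

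The members and the gene lists were chosen with earlier results of these data known. All members are named, up to 4 called genes with the smallest p per list in the daily average or the rhythm test (cell type and clock lists by counts and ranges only), and the 3 genes most correlated with each member over 12 group means. From those cell type and clock lists Dbp, Arntl, Clec4f, Adgre1, Tat, Lyve1 and, as a hepatocyte gene, Hnf4a are named nonetheless. The 4 tested adipose genes are named as well, and all of these were picked after their values were seen. Alternatives covered scaling, the filter, probe sets, the offset, a replicate block, the variance prior, weights for arrays, the shape of the rhythm test and leaving out each array. Promoter sequences are from RefSeq.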

Additional observations from a re-analysis of the deposited data

Results flagged for a closer look

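Slc25a15, the ornithine carrier, drew attention because every high fat diet sample lay below every chow sample at ZT0 (difference -0.132) and above every chow sample at ZT8 (0.153) and ZT16 (0.185). Without chow replicate 1 at ZT16, an array of low weight, the value there was 0.0948. Groups without overlap occurred for 26.5% of tested genes at ZT0, 14.5% at ZT8 and 18.0% at ZT16. How many tested genes separated in opposite directions at different times was not counted. The F test of a diet difference that varies over the 6 times missed the threshold in limma, with adjusted p = 0.411.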

How the results depend on the processing

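The average differences of Asl, Cps1 and Glul and the rhythm of Asl kept their direction and their side of the threshold under every alternative run, 47 for a diet difference and 48 for a rhythm.

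After quantile normalization 3 members were called lower at ZT0 in place of 1, and 1 lower and 1 higher at ZT4 and 1 higher at ZT20 in place of 0. The interaction then called 151 genes in place of 88 and the rhythm difference 11 in place of 4. Otc at ZT20 turned to 0.018 and Asl at ZT16 to -0.0035. After median centring 4 members were lower on average and 4 at ZT0. Of all genes 827 were then higher and 1926 lower on average, and 1806 were called at ZT0. Reversed there were Otc on average (-0.029), at ZT4 (-0.016), at ZT16 (-0.023) and at ZT20 (0.0021), Slc25a15 on average (-0.016), Asl at ZT16 (-0.032), Nags at ZT16 (-0.0037) and Arg1 at ZT16 (-0.0087). The 50th percentile filter, the offset of 64 and a trended robust prior each called 1 member lower at ZT4 and 1 at ZT12. That filter, the offset of 64 and array weights each called 3 members lower on average in place of 2. Of all genes they called 1353, 1410 and 1996 lower in place of 1367, the filter with fewer genes tested. Counts of all genes at single times under quantile normalization, that filter, the offset and the prior are not given here. Member counts at those times thus stand without a background.

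Array weights called 3 members lower at ZT0, 1 lower each at ZT4, ZT12 and ZT20, 1 higher at ZT8 and 2 in the interaction. In that setting the count of all genes rose from 515 to 1082 at ZT4 and from 108 to 1716 at ZT8. It rose from 759 to 1205 at ZT12 and from 285 to 821 at ZT20, and the count at ZT0 is not given here. The weights also called 1862 genes in the interaction, 2802 rhythmic on high fat diet and 185 with a rhythm difference. Reversed were Otc on average (-0.027) and at ZT4 (-0.024), Slc25a15 at ZT20 (-0.034) and Asl at ZT8 (0.078) and ZT16 (-0.0016). Without the 4 arrays of lowest weight the interaction called 175 genes and the rhythm difference 1. Otc then stood at -0.022 on average and -0.082 at ZT4, and Asl at -0.011 at ZT16. An F test over the 6 times called 2340 genes rhythmic on high fat diet in place of 1540.

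Leaving out each array gave 1 to 2 members lower at ZT0, 0 to 1 at ZT4 and 0 to 1 at ZT12, 69 to 134 genes in the interaction and 4 to 11 in the rhythm difference. It also gave 2 to 3 members lower on average and 2 to 3 rhythmic members on each diet. Differences that changed sign ran as follows. Otc went from -0.0042 to 0.025 on average, -0.082 to 0.092 at ZT4, -0.084 to 0.0305 at ZT8, -0.064 to 0.059 at ZT16 and -0.13 to 0.0012 at ZT20. Asl went from -0.10 to 0.048 at ZT8 and -0.011 to 0.015 at ZT16, Arg1 from -0.068 to 0.079 and Nags from -0.011 to 0.064 at ZT16, and Slc25a15 from -0.058 to 0.089 at ZT20. The Ass1/Gm5424 signals at ZT0 went from -0.10 to 0.025 and from -0.11 to 0.015.

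The replicate numbers did not pair the samples. Same-numbered arrays of the 2 diets at a time had residual correlations from -0.412 to 0.350 (median 0.0206, 18 pairs). The replicate block called 1563 genes higher and 1389 lower on average with 1 member higher and 2 lower, and it changed no other member count. Over the alternatives the genes called ran from 270 to 1806 at ZT0, 258 to 1082 at ZT4, 54 to 1716 at ZT8, 291 to 1205 at ZT12, 96 to 1336 at ZT16 and 124 to 821 at ZT20, with each lowest count from leaving out 1 array.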
